A study of Mus musculus with 12 samples.

Results

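Interferon-stimulated genes are the genes that cells switch on when an interferon binds its receptor. The family described here holds 39 such genes, taken by name from a list of known interferon-stimulated genes that was drawn up with earlier results of these data known, of 12885 genes in the expression table, and all 39 passed the filter for testing (at least 1 RPKM, reads per kilobase of gene scaled to the reads of the library, in at least 2 libraries). They were grouped by role into 5 regulators, 6 sensors of RNA and DNA, 9 RNA-directed effectors, 9 guanylate-binding proteins and other GTPases, 3 protein modifiers and 7 membrane proteins and others. RNA was measured in naive CD8 T cells of the spleen, sorted as CD8+ CD62Lhi CD44 lo/-, from C57Bl/6 mice aged 6 weeks that were either wild type (WT) or homozygous for the Ikaros-Zn4 mutation (Ikaros-Zn4-/-, here Zn4). Cells of each genotype were used resting (0 h) or were stimulated for 12 h or 24 h by antibodies to CD3 and CD28 bound to the plate, which stand in for antigen and costimulation. Each of the 6 groups had 2 libraries. The labels name no Cre, conditional allele or agent other than the antibodies, and they do not say whether the libraries of a group came from separate animals, so p-values measure the spread between libraries, which may be technical outside the 12 h groups (below).

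Type I interferons signal through the receptor chains Ifnar1 and Ifnar2 to a complex that holds Stat2 and Irf9 and binds the interferon-stimulated response element in promoters. Interferon gamma signals through Ifngr1 and Ifngr2, acts on promoters with the gamma-activated site, and raises Irf1 and many GTPase genes. Resting T cells carry a low tonic level of these transcripts, and Ikaros, a zinc finger transcription factor of lymphocytes, is not itself a member of the family.

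Promoter sequences are given first for 4 members, since these share the response element while their RNA moved in different ways: Gbp2 and Irgm1 rose in WT cells and fell in Zn4 cells over 12 h, Ifih1 did the opposite, and Isg15 fell in both. The falls of Gbp2 and Irgm1 in Zn4 cells were lost in some alternative fits, given below. Each sequence runs 5′ to 3′ on the gene's strand from 250 bases before the start site, is taken from RefSeq on GRCm38.p6, and has in capitals each match to the core of the interferon-stimulated response element, GAAA then 2 bases of any kind then GAAA (matches on the other strand read TTTC, 2 bases, TTTC, and overlapping matches run together). The windows are chr3:142620413-142620712 (+ strand) for Gbp2, chr11:48871371-48871670 (- strand) for Irgm1, chr2:62646206-62646505 (- strand) for Ifih1 and chr4:156200769-156201068 (- strand) for Isg15.
Gbp2: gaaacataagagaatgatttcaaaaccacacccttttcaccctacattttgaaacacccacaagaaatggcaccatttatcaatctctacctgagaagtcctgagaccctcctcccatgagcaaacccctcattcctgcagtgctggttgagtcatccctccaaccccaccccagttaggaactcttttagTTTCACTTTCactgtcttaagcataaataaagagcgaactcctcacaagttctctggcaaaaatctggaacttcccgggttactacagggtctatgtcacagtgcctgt
Irgm1: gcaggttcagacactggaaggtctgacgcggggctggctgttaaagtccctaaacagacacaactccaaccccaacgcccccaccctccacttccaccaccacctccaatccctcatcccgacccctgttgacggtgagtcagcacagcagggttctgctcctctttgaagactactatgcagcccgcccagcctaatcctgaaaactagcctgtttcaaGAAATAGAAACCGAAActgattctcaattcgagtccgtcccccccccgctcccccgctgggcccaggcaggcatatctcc
Ifih1: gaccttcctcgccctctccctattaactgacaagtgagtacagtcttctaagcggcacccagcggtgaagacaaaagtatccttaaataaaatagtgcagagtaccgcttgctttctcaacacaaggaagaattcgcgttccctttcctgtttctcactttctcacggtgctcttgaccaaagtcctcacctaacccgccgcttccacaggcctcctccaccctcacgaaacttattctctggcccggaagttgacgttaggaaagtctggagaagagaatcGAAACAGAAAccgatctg
Isg15: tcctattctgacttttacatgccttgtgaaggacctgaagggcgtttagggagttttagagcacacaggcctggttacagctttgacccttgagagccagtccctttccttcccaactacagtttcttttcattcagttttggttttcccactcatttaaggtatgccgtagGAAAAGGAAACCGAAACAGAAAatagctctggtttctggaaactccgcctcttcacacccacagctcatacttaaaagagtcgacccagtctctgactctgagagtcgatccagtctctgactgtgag
The core occurred 1 time in Gbp2 and in Ifih1, 2 times in Irgm1 and 3 times in Isg15. RefSeq promoters were matched for 28 of the 39 members. At least 1 core lay in 15 of these 28 genes (53.6%), against 3.99% of 27025 genes with a promoter of the same length. The members that hold it are Bst2, Ddx58, Eif2ak2, Gbp2, Gbp3, Gbp7, Ifih1, Ifit1, Ifit3, Ifitm3, Igtp, Irgm1, Isg15, Oas1a and Stat2, so genes that rose and genes that fell are both among them. The core of the gamma-activated site, TTC then 3 bases of any kind then GAA (the same on both strands), was found in 10 of 28 members (35.7%) and in 9.55% of all genes. TGGGAA, the core bound by Ikaros, was found on either strand in 12 of 28 members (42.9%) and in 28.3% of all genes. Among other members that the results turn on, RefSeq places Irf1 at chr11:53770014-53778374, Samhd1 at chr2:157097534-157135096, Ifitm3 at chr7:141009590-141010744, Oasl2 at chr5:114896926-114912245 and Oasl1 at chr5:114923143-114937911, each the span of the whole gene on GRCm38. Family genes often share sequence by descent, and these matches describe letters in a window, not bound sites.

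Library totals, recovered from the steps in the RPKM values, ran from 24263904 to 33389809 reads, so that a 2 kb gene with 3 reads had 0.0449 to 0.0618 RPKM. The summed level of 6 CD8 T cell markers was 1617 to 1764 RPKM in WT and 1663 to 1803 in Zn4 libraries at rest, 2065 to 2261 and 1727 to 1741 at 12 h, and 1930 to 2002 and 1279 to 1484 at 24 h. Of the marker lists for other cells, 1 of 10 B cell genes had values (Cd79b, 0.298 to 6.62 RPKM), 2 of 12 myeloid genes (Itgam and Cd68, sum 1.40 to 6.62 RPKM) and 3 of 8 genes of plasmacytoid dendritic cells (Irf8, Runx2 and Pacsin1, which T cells also express; sum 4.84 to 9.35 RPKM at rest and 32.9 to 78.5 after stimulation), 1 of 8 natural killer genes (0.02 to 1.16 RPKM) and 2 of 4 CD4 T cell genes (0.261 to 2.35 RPKM), and 6 erythroid genes were not analysed here. Their part in the results below was not tested. All animals are labelled female, yet the sum of 4 Y-linked genes reached 38.9 RPKM in replicate 1 of WT at 12 h and 43.4 and 21 RPKM in the 2 replicates of Zn4 at 12 h, with at most 0.0209 in every other library. Counts that rest on the 12 h libraries are therefore given also without one of them or with the summed Y-linked level as a covariate. All-gene shares under these fits are not given, so a loss of calls in the family and over all genes cannot be told apart. Both Zn4 libraries of 12 h held Y-linked transcripts, so in Zn4 cells these cannot be told apart from the time point. The X-linked transcript Xist was at 0.0023 and 52.6 RPKM in replicates 1 and 2 of WT at 12 h and at 0.0258 and 24.3 in those of Zn4 at 12 h. In every other library it was at 27.2 to 82.7 RPKM. The 2 libraries of a 12 h group were thus not repeats of 1 RNA sample.

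Most interferon-stimulated genes were lower in WT cells after 12 h of stimulation. No group was kept in culture without the antibodies, so effects of the antibodies and of time in culture cannot be told apart. Of the 39 members, 27 fell, 3 rose (Gbp2, Irgm1 and Bst2) and 9 did not pass the test (called at adjusted p under 0.05 by limma, a linear model on log2(RPKM + 1), with Benjamini-Hochberg adjustment over 12726 genes). Over all tested genes 70.2% were called, 27.0% lower and 43.1% higher. The median member differed by -0.94 (12 h minus 0 h, log2 scale), against 0.20 over all genes. In bulk RNA, fewer cells with a transcript and less of it in each cell cannot be told apart. In Zn4 cells the same comparison gave 35 members lower and 2 higher, Ifih1 and Bst2. The median was -1.79 against 0.19 over all genes, and of all genes 73.0% were called, 29.6% lower and 43.5% higher. Without WT 12 h replicate 1 the WT counts were 25 lower and 3 higher, and without Zn4 12 h replicate 1 or replicate 2 the Zn4 counts were 31 or 33 lower. With the Y-linked covariate the Zn4 counts were 29 lower and 1 higher, as the calls of Gbp2 (-0.23), Irgm1 (-0.83), Isg20 (-0.74), Ifit1 (-0.76), Ifit3 (-1.09), Mx1 (-1.09) and Bst2 (0.54) were lost. The rise of Bst2 in Zn4 cells was lost under 6 alternatives, among them median-ratio scaling (0.17, adjusted p = 0.282 by limma).

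**Figure D1:**
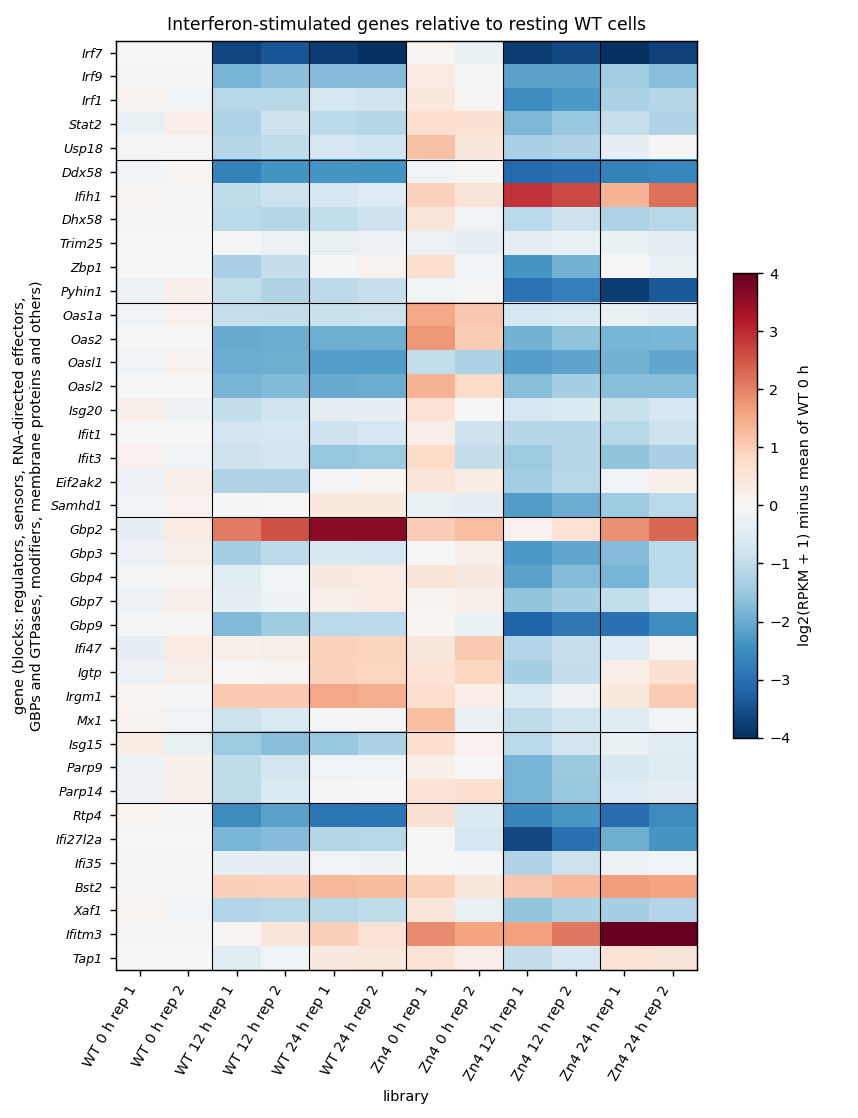
Colour shows log2(RPKM + 1) of each of the 39 genes (rows, in blocks by role) in each of the 12 libraries (columns) minus the mean of the 2 WT libraries at 0 h, with the scale stopped at 4 in both directions. Most rows turn blue at 12 h, most deeply in the Zn4 libraries, while Gbp2 in WT and Ifih1 in Zn4 cells turn red. Ifitm3 in Zn4 cells is deep red at 24 h.

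All 5 regulators fell over 12 h in both genotypes. Irf7, the factor that amplifies type I interferon, stood at 22.7 and 22.8 RPKM in resting WT cells, 0.872 and 1.22 at 12 h and 0.723 and 0.491 at 24 h. In Zn4 cells it stood at 24.3 and 18.6, then 0.718 and 0.938, then 0.466 and 0.782. The resting libraries did not overlap the stimulated ones, and the fall of -3.54 ± 0.16 (SE, adjusted p = 9.5e-08 by limma) in WT and -3.61 ± 0.16 in Zn4 cells over 12 h was the largest of any member in each genotype. The genotypes overlapped at every time.

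Irf9, the DNA-binding part of the type I complex, went from 27.4 and 28.9 RPKM to 7.01 and 8.17 and then 7.74 and 7.84 in WT cells, and from 35.3 and 27.3 to 5.57 and 5.55 and then 10.2 and 7.91 in Zn4 cells. Stat2, its partner, was at 10.8 and 16.2, then 5.01 and 6.87, then 5.72 and 5.42 RPKM in WT and at 21.5 and 20.9, then 3.12 and 4, then 6.55 and 5.17 in Zn4 libraries. Resting Zn4 cells thus held more Stat2 than either resting WT library (0.64 ± 0.20, adjusted p = 0.104 by limma, not called), and both lay below the WT libraries at 12 h (-0.60 ± 0.20, adjusted p = 0.0807). The difference between the falls was called (-2.29 against -1.05, difference -1.24 ± 0.28, adjusted p = 0.0353), a call lost under 9 alternatives.

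Irf1, the regulator induced by interferon gamma, separated the genotypes most among regulators at 12 h. It stood at 109 and 90.0 RPKM in resting WT cells, 45.2 and 45.3 at 12 h and 60.3 and 56.6 at 24 h. In Zn4 cells the values were 132 and 102, then 16.4 and 19.5, then 40.7 and 44.7. The genotypes overlapped at 0 h, and Zn4 libraries lay below all WT libraries at 12 h and 24 h. The fall over 12 h was -1.11 ± 0.14 in WT and -2.64 ± 0.14 in Zn4 cells, and the difference of -1.52 ± 0.19 (adjusted p = 0.00323 by limma) was called under all 21 alternatives. Usp18, a protease that restrains the type I receptor, fell by 1.08 in WT and by 2.06 in Zn4 cells. Its means were 2.30 RPKM in WT and 4.97 in Zn4 cells at rest, and 0.972 and 1.87 at 24 h. Neither difference was called.

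Among the 6 sensors, 5 fell over 12 h in WT cells and 4 in Zn4 cells, where 1 rose. Ddx58 encodes RIG-I, a sensor of viral RNA. It was at 10.6 and 12.5 RPKM in resting WT cells and 0.928 to 1.46 in the 4 stimulated WT libraries, and at 10.3 and 11.8 in resting and 0.449 to 1.07 in stimulated Zn4 libraries. Its falls were -2.54 ± 0.14 (WT) and -3.00 ± 0.14 (Zn4). Dhx58, which encodes the related LGP2, fell by 1.10 and by 1.12, while Trim25, the ubiquitin ligase of RIG-I, kept 17.4 to 23.3 RPKM in all 12 libraries and was not called at 12 h in either genotype.

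Ifih1, which encodes the RNA sensor MDA5 of the same helicase family, went the other way in Zn4 cells. WT libraries held 2.72 and 2.39 RPKM at 0 h, 0.766 and 0.943 at 12 h and 1.23 and 1.48 at 24 h. Zn4 libraries held 5.80 and 4.06, then 25.1 and 21.2, then 8.19 and 15.5. Every Zn4 library lay above every WT library. At 12 h the Zn4 mean was 27.1 times the WT mean (3.70 ± 0.25 on the log2 scale, adjusted p = 3.6e-05 by limma), and at 24 h 8.74 times (2.39 ± 0.25, adjusted p = 0.000262). At rest the difference of 0.72 ± 0.25 was not called (adjusted p = 0.147). Over 12 h the gene fell in WT cells (-0.94 ± 0.25, adjusted p = 0.00692) and rose in Zn4 cells (2.04 ± 0.25, adjusted p = 4.4e-05), a difference in response of 2.98 ± 0.35 (adjusted p = 0.00228). Of 8 neighbours looked up on chromosome 2, Dpp4 alone was analysed, and its means went from 25.8 to 7.78 RPKM over 12 h in WT and from 31.4 to 4.93 in Zn4 cells.

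The other 2 sensors, Zbp1 and Pyhin1, were called lower in Zn4 than in WT cells at 12 h, but the call of Zbp1 was lost with the Y-linked covariate (-0.82), without either WT library of 12 h (-1.17 and -0.83) and without Zn4 12 h replicate 1 (-0.76). Zbp1, a sensor of left-handed nucleic acids that triggers cell death, stood at 13 and 12.7, then 4.64 and 6.14, then 12.2 and 14.4 RPKM in WT cells and at 20.8 and 11.9, then 1.70 and 2.75, then 13.1 and 10.6 in Zn4 cells. It was low in all 4 libraries of 12 h, and at 24 h the difference from rest was 0.04 ± 0.25 in WT and -0.39 ± 0.25 in Zn4 cells, neither called. Pyhin1, of the PYHIN family of DNA-binding proteins, went from 23.6 and 32.0 to 13.5 and 11.4 and then 12.9 and 14.2 RPKM in WT, and from 24.4 and 26.7 to 2.67 and 3.24 and then 1.03 and 1.79 in Zn4 libraries. The genotypes overlapped at rest only. The Zn4 minus WT difference was -1.76 ± 0.18 at 12 h (adjusted p = 0.000328 by limma) and -2.61 ± 0.18 at 24 h (adjusted p = 2.8e-05), the largest deficit of any member at 24 h.

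The 9 genes grouped as RNA-directed effectors cut, bind or modify viral RNA or block its use, except Samhd1, which acts on nucleotides. Over 12 h, 7 fell in WT cells and 9 in Zn4 cells. Oas2, which makes the messenger that activates an antiviral RNase, dropped from 3.21 and 3.22 RPKM to 0.037 and 0.074 in WT cells and from 12.9 and 7.58 to 0.144 and 0.375 in Zn4 cells, with 0.0833 to 0.180 in all libraries of 24 h. Oas1a, of the same family, dropped from 0.787 and 1.26 to 0.0655 and 0.0318 in WT and from 4.86 and 3.22 to 0.245 and 0.308 in Zn4 cells. At 24 h Oas1a was at 0.0875 and 0.112 in WT and 0.663 and 0.573 in Zn4 cells. Both genes were thus near or below 1 RPKM in all stimulated libraries, where adding 1 before the logarithm damps differences.

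Oasl1 and Oasl2, neighbours on chromosome 5 that encode OAS-like proteins, differed in opposite directions between the genotypes at rest. Oasl1, known for limiting translation of Irf7, was at 3.53 and 4.40 RPKM in resting WT and 1.51 and 1.07 in resting Zn4 cells. Oasl2 was at 3.20 and 3.35 in resting WT and 10.3 and 6.34 in resting Zn4 cells. In neither gene did the resting genotypes overlap, and the differences were -1.12 ± 0.13 (adjusted p = 0.00108 by limma) and 1.09 ± 0.19 (adjusted p = 0.0101), the second of which was not called with a pseudocount of 0.1 (1.28, adjusted p = 0.0726). Both were lower in stimulated cells, Oasl1 at 0.0541 to 0.264 RPKM in WT and 0.0682 to 0.330 in Zn4 libraries. Oasl2 was at 0.0637 to 0.247 in WT and 0.299 to 0.712 in Zn4 libraries. Neither promoter window holds the core of the response element.

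Samhd1, a phosphohydrolase that depletes the nucleotides viruses need, did not pass the test in WT cells at 12 h and fell in Zn4 cells. It stood at 25.4 and 33.1, then 28.2 and 29.2, then 38.7 and 38.2 RPKM in WT cells. In Zn4 cells it stood at 23.5 and 22.4, then 5.33 and 6.57, then 10.1 and 13.3. Every Zn4 library lay below every WT library, with differences of -0.33 ± 0.15 at rest (adjusted p = 0.294 by limma, not called), -2.10 ± 0.15 at 12 h (adjusted p = 5.8e-05) and -1.65 ± 0.15 at 24 h (adjusted p = 0.000133). The deficit at 12 h was the largest of any member. Eif2ak2, which encodes the kinase PKR that stops translation, fell and returned in both genotypes, from 3.57 and 5.26 to 1.34 and 1.29 and then 4.15 and 4.69 RPKM in WT, and from 6.54 and 5.52 to 1.08 and 1.46 and then 3.99 and 5.13 in Zn4 libraries (difference in response at 12 h -0.42 ± 0.24, adjusted p = 0.416). Isg20, Ifit1 and Ifit3 fell over 12 h in Zn4 cells by 0.90, 0.86 and 1.20. These 3 calls were lost with the Y-linked covariate, those of Ifit1 and Ifit3 also without either Zn4 library of 12 h, and without Zn4 0 h replicate 1 the values were -0.32 for Ifit1 (adjusted p = 0.078 by limma) and -0.36 for Ifit3 (adjusted p = 0.157). In WT cells Isg20 fell by 0.87 and Ifit1 by 0.72 (adjusted p = 0.0406, a call lost under 11 alternatives), and Ifit3 was at -0.79 ± 0.42 (adjusted p = 0.122).

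**Figure D2:**
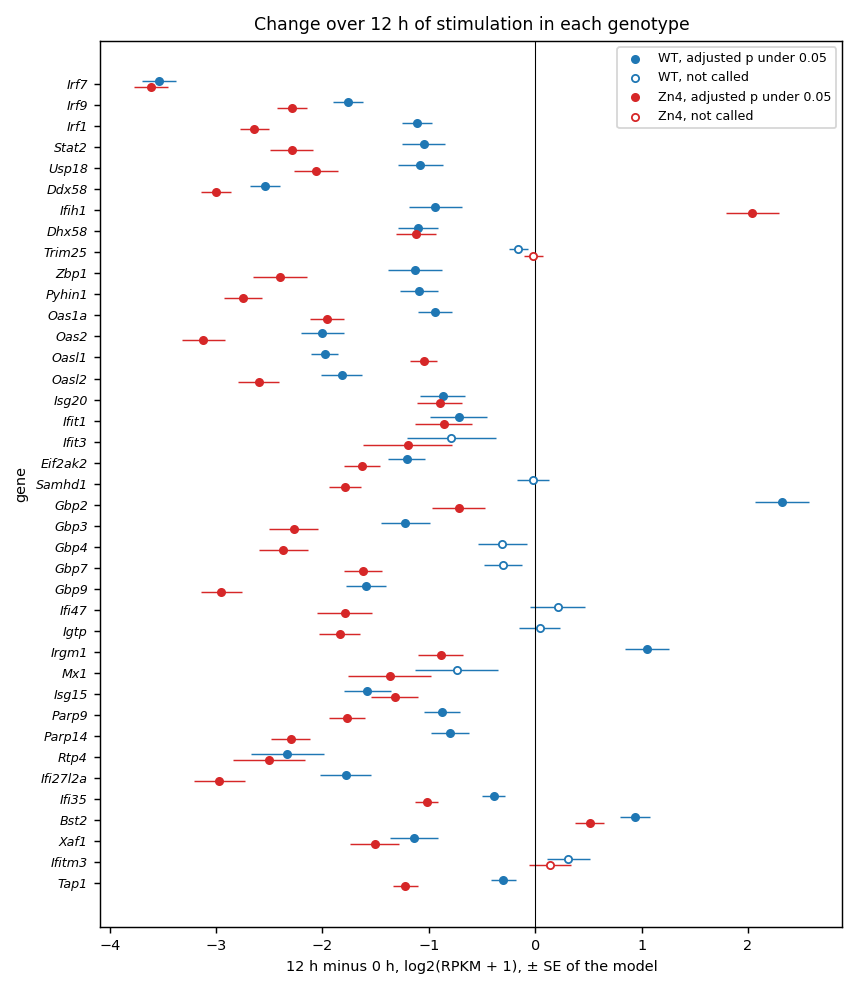
Points give the difference 12 h minus 0 h in log2(RPKM + 1) for each gene in WT (blue) and Zn4 (red) cells, with bars of ± 1 SE of the model; filled points passed the test. WT Gbp2 (2.32), Irgm1 (1.05) and Bst2 (0.94) and Zn4 Ifih1 (2.04) and Bst2 (0.51) are the filled points to the right of 0.

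The guanylate-binding proteins and other GTPases, which attack the membranes of pathogens and are mostly induced by interferon gamma, were split in WT cells and all fell in Zn4 cells. Over 12 h, 2 of the 9 rose and 2 fell in WT cells, while 9 of 9 fell in Zn4 cells. Gbp2 stood at 17.6 and 27.8 RPKM at rest, 97.0 and 135 at 12 h and 280 and 283 at 24 h in WT cells. In Zn4 cells it stood at 44.3 and 52.8, then 25 and 33.4, then 80.5 and 112. Resting Zn4 libraries lay above, and stimulated Zn4 libraries below, the WT libraries of the same time. The change over 12 h was 2.32 ± 0.25 in WT (adjusted p = 2.1e-05 by limma) and -0.72 ± 0.25 in Zn4 cells (adjusted p = 0.024, a call lost with the Y-linked covariate and without Zn4 0 h replicate 2 or Zn4 12 h replicate 1), and the difference in response was -3.04 ± 0.35 (adjusted p = 0.00228), the largest negative one of any member.

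Irgm1, a GTPase of vacuole and autophagy control, showed the same order at lower levels. WT libraries held 10.8 and 9.53, then 22 and 22.1, then 31.9 and 29.5 RPKM, and Zn4 libraries 17.0 and 12.4, then 6.46 and 8.45, then 13.6 and 21.5. Its responses at 12 h were 1.05 ± 0.21 in WT and -0.89 ± 0.21 in Zn4 cells, the latter not called with the Y-linked covariate (-0.83, adjusted p = 0.0858), with a difference of -1.93 ± 0.30 (adjusted p = 0.00734 by limma). The related Ifi47 was at 63.4 and 102, then 92.4 and 94.2, then 152 and 150 RPKM in WT and at 111 and 166, then 35.4 and 41.8, then 55.8 and 84.6 in Zn4 cells. Igtp was at 78.2 and 107, then 89.9 and 98.9, then 175 and 167 in WT and at 133 and 167, then 35.7 and 46.6, then 111 and 139 in Zn4 cells. Neither was called over 12 h in WT cells (0.21 ± 0.26 and 0.04 ± 0.19), both fell in Zn4 cells (-1.79 ± 0.26 and -1.84 ± 0.19), and the libraries of the genotypes did not overlap at any time.

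Gbp4 and Gbp9 were lower in Zn4 cells at both stimulated times. Gbp4 held 39.8 and 44.5, then 30.5 and 37.4, then 54.4 and 53.0 RPKM in WT and 60.1 and 54.8, then 8.82 and 12.0, then 11 and 19.5 in Zn4 libraries. Gbp9 held 36.3 and 39.1, then 10.4 and 13.5, then 17.5 and 17.8 in WT and 39.8 and 31.4, then 3.21 and 4.29, then 3.87 and 5.84 in Zn4 libraries. Zn4 libraries were below all WT libraries of the same time at 12 h and 24 h for both genes, with differences of -1.62 ± 0.23 and -1.80 ± 0.23 for Gbp4 (adjusted p = 0.00162 and 0.00072 by limma) and -1.45 ± 0.19 and -1.69 ± 0.19 for Gbp9 (adjusted p = 0.00118 and 0.000406). The differences of Gbp3 and Gbp7 at 12 h were -0.96 and -1.15, both called, but that of Gbp3 not with the Y-linked covariate (-0.81, adjusted p = 0.128), without WT 12 h replicate 2 (-0.80) or without either Zn4 library of 12 h (-0.86 and -1.07). Gbp5, a neighbour of Gbp2 that is no member, had group means of 1.92, 19.0 and 32.1 RPKM in WT and 3.39, 9.88 and 19.5 in Zn4 cells. Mx1, annotated as a transcribed pseudogene in RefSeq, ranged from 0.0585 to 4 RPKM and its genotype difference was not called at any time. The families of Gbp, Oas, Ifit and PYHIN genes hold near-identical copies, and how reads matching several copies were counted is not given in the sources used here.

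All 3 modifiers fell over 12 h in both genotypes. Isg15, a ubiquitin-like protein attached to other proteins, stood at 9.14 and 5.84, then 2.01 and 1.58, then 1.91 and 2.47 RPKM in WT and at 12.0 and 8.38, then 2.92 and 3.99, then 5.74 and 5.24 in Zn4 cells. Stimulated Zn4 libraries lay above the WT libraries of the same time, against most of the family, and the difference was called at 24 h (1.03 ± 0.22, adjusted p = 0.011 by limma) but not at 12 h (0.66 ± 0.22, adjusted p = 0.0861). Parp9 and Parp14, which attach ADP-ribose, fell by 0.88 and 0.80 in WT and by 1.77 and 2.30 in Zn4 cells.

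Of the 7 membrane proteins and others, 5 fell and 1 rose over 12 h in each genotype. Rtp4, a chaperone of membrane receptors, went from 9.09 and 8.06 to 0.680 and 1.16 and then 0.288 and 0.269 RPKM in WT and from 13.6 and 5.42 to 0.542 and 0.901 and then 0.149 and 0.687 in Zn4 cells. Ifi27l2a was at 117 and 117, then 32.0 and 34.7, then 53.0 and 53.5 in WT and at 116 and 73.8, then 8.6 and 13.8, then 29.4 and 22 in Zn4 cells. Both fell in every stimulated group; for Ifi27l2a the Zn4 libraries lay lower at 12 h (-1.53 ± 0.24, adjusted p = 0.00287 by limma). Ifi35 fell by 0.39 and 1.02 and Xaf1 by 1.14 and 1.51 (WT and Zn4).

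Bst2, which encodes tetherin, a protein that holds budding virions at the cell surface, rose in both genotypes. It was at 38.5 and 35.4, then 71.8 and 71.6, then 92.9 and 91.1 RPKM in WT and at 70.7 and 50.7, then 79.0 and 92.3, then 121 and 112 in Zn4 libraries. Zn4 libraries were above the WT libraries of the same time throughout, with differences of 0.68 ± 0.14 at rest (adjusted p = 0.0211 by limma), 0.25 ± 0.14 at 12 h (adjusted p = 0.318) and 0.33 ± 0.14 at 24 h (adjusted p = 0.136). Tap1, which carries peptides to MHC class I, dipped at 12 h and returned, from 50.1 and 50 to 37.5 and 43.9 and then 64.4 and 66.8 RPKM in WT and from 72.9 and 60.5 to 25.2 and 30.7 and then 74.5 and 72.7 in Zn4 cells. Its rise over 24 h in WT cells (0.38 ± 0.12, adjusted p = 0.0154) turned to -0.00 with median-ratio scaling and -0.02 with quantile normalization, and its WT fall over 12 h (-0.30 ± 0.12, adjusted p = 0.0497) was lost under 10 alternatives.

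Ifitm3, which blocks the entry of viruses through endosomes, had the largest positive genotype difference of any member at rest and at 24 h. WT libraries held 0.173 and 0.121 RPKM at 0 h, 0.243 and 0.618 at 12 h and 1.22 and 0.729 at 24 h. Zn4 libraries held 3.27 and 2.41, then 2.57 and 3.91, then 37.6 and 42.2. The genotypes did not overlap, and the Zn4 mean was 19.3, 7.52 and 41 times the WT mean at the 3 times (log2 differences 1.73 ± 0.20, 1.56 ± 0.20 and 4.38 ± 0.20, adjusted p = 0.000966, 0.00109 and 4e-06 by limma). The WT means rest on few reads of this short gene, 3 and 2 at 0 h, 4 and 14 at 12 h and 20 and 14 at 24 h, so these ratios are rough. Its neighbour Ifitm2, no member, had means of 0, 3.30 and 16.5 RPKM in WT and 0.570, 4.55 and 12.3 in Zn4 cells.

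**Figure D3:**
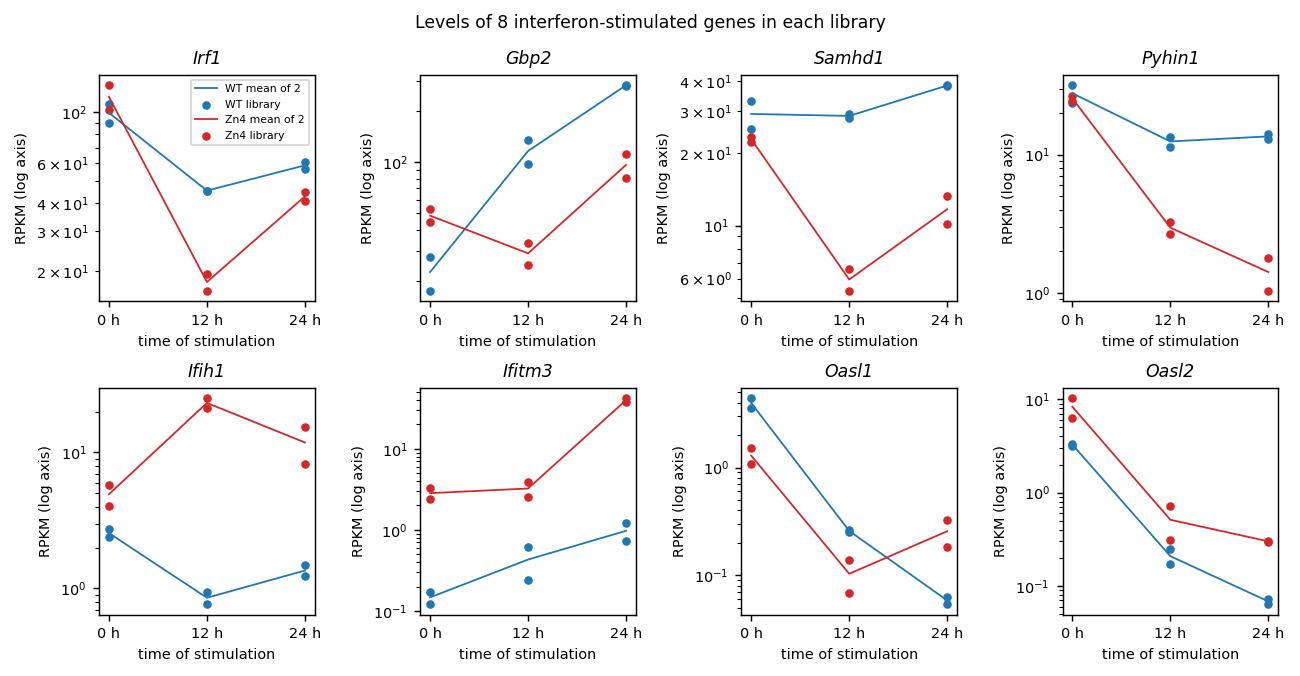
RPKM on a log axis against time for 8 members, with a point for each library and a line through the mean of the 2 libraries of WT (blue) and Zn4 (red) cells. The lines cross for Irf1 and Gbp2, move apart on stimulation for Samhd1, Pyhin1 and Ifih1, and lie apart at rest in opposite order for Oasl1 and Oasl2.

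From 12 h to 24 h the called members mostly rose, as did the called genes overall in the table. In WT cells 8 rose (20.5%, near the 17.0% of all genes) and 0 fell (against 6.94% of all genes). The median member was at 0.36 against 0.04 over all genes, of which 24.0% were called. By limma without adjustment (p under 0.05) 18 were higher and 0 lower, and limma-voom on recovered reads called 1 lower. In Zn4 cells 20 rose and 2 fell (Ifih1 and Pyhin1), with a median of 0.59, against 33.6% of all genes called and 22.6% called higher. With the Y-linked covariate 6 rose and 0 fell (Ifih1 -1.05, adjusted p = 0.21, and Pyhin1 -0.57, adjusted p = 0.353), and without Zn4 12 h replicate 1 14 rose. The fall of Ifih1 was also lost without replicate 1 of Zn4 at 12 h (-0.85) or 24 h (-0.55), and that of Pyhin1 without Zn4 12 h replicate 2 (-0.63) or Zn4 24 h replicate 1 (-0.50). The 8 WT genes were Gbp2, Gbp7, Igtp, Parp9, Parp14, Eif2ak2, Zbp1 and Tap1. The WT count of 8 was 2 when replicate 1 of 12 h was left out, and 4 or 3 when replicate 1 or 2 of 24 h was. Against 0 h, 24 h still left 21 members lower and 8 higher in WT cells (median member -0.66; of all genes 73.9% were called, 25.6% lower and 48.3% higher) and 27 lower and 4 higher in Zn4 cells (median -1.02; of all genes 74.7% were called, 26.0% lower and 48.7% higher). The 8 higher in WT cells were Gbp2, Irgm1, Bst2, Ifi47, Igtp, Samhd1, Ifitm3 and Tap1, and the count was 5 with median-ratio scaling or quantile normalization. In Zn4 cells Gbp2, Ifih1, Bst2 and Ifitm3 were higher, but Gbp2 was not called with these scalings (0.56 and 0.55). Ifi47 and Samhd1 were called in opposite directions in the genotypes. With these scalings their rises in WT cells were not called (0.51 and 0.53 for Ifi47, 0.01 and 0.01 for Samhd1). The fall of Ifi47 in Zn4 cells was lost without Zn4 0 h replicate 2 (-0.69) or Zn4 24 h replicate 1 (-0.68).

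At rest the genotypes differed in 7 of 39 members. Higher in Zn4 cells were Ifitm3 (1.73 ± 0.20), Oas2 (1.37 ± 0.20, adjusted p = 0.00316 by limma), Oas1a (1.31 ± 0.16, adjusted p = 0.00147), Gbp2 (1.09 ± 0.25, adjusted p = 0.0334), Oasl2 (1.09 ± 0.19) and Bst2 (0.68 ± 0.14), and lower was Oasl1 (-1.12 ± 0.13). Over all genes 5.72% were called, 3.76% higher and 1.96% lower. The other 32 members did not pass the test, and the median over members was 0.27 against -0.02 over all genes. Deviations of equally numbered libraries from their group means had a correlation of 0.61 between the resting genotypes, and with the replicate number as a block at each time point, chosen after seeing the data, 11 members were called higher at rest. Of 7 markers of memory-phenotype T cells, which the CD44 lo/- gate was set to leave out, 3 were called higher in resting Zn4 cells, with a median of 1.48. Their sum was 168 to 206 RPKM in WT and 229 to 301 in Zn4 libraries, most of it Il2rb (means of 172 and 209). Cxcr3, a chemokine receptor gene of such cells, was at 0.79 and 0.756 RPKM in resting WT and 15 and 10.4 in resting Zn4 cells, and Eomes, a factor gene of memory cells, at 4.48 and 2.76 and at 19.1 and 10.9. Cd44 itself went the other way, at 1.23 and 1.39 RPKM in resting WT and 0.535 and 0.99 in resting Zn4 cells (-0.40, not called). Of 6 markers of naive T cells, 0 were called at rest, with a median of -0.03. The part of these markers in the resting differences of the family was not tested.

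The resting libraries of one genotype also differed from each other across the family. In resting Zn4 cells replicate 1 was above replicate 2 in 31 of 39 members, by a median of 0.36 on the log2 scale where all genes had a median of 0.00. On that scale Ifit3 (5.49 and 1.02 RPKM), Mx1 (4 and 0.742), Rtp4 (13.6 and 5.42) and Ifit1 (3.18 and 0.977), chosen after their values were seen, differed most. The memory-phenotype marker Ly6c2 was also higher in replicate 1 (27.4 against 9.65 RPKM). Gbp2, Ifi47 and Igtp, by contrast, were higher in replicate 2. Without Zn4 0 h replicate 1 the median member differed between genotypes by 0.05 and 4 members were called higher and 3 lower, and without replicate 2 by 0.50, with 7 higher and 1 lower. The call of Gbp2 was lost without WT 0 h replicate 1 (0.78, adjusted p = 0.138), either library of Zn4 at 0 h or either of WT at 24 h, and that of Bst2 without either WT library or Zn4 replicate 1 of 0 h.

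**Figure D4:**
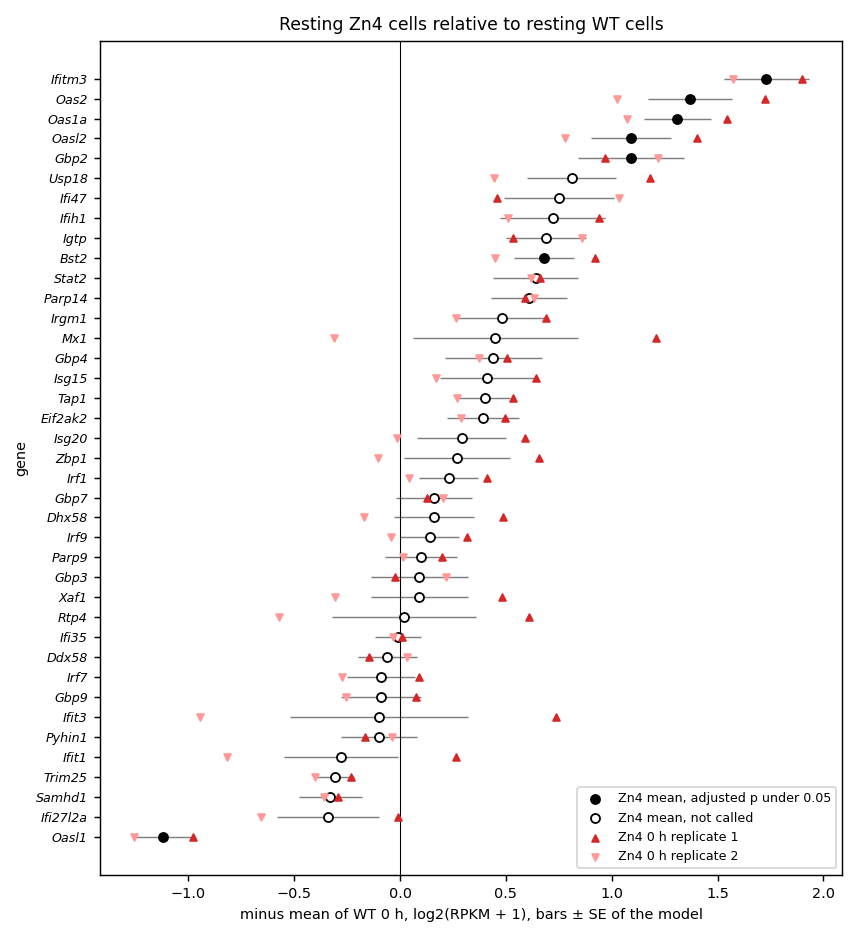
Circles give the Zn4 minus WT difference at 0 h in log2(RPKM + 1) for each gene with ± 1 SE of the model (filled where called), and triangles give each Zn4 library minus the WT mean. The 6 filled circles on the right run from Bst2 (0.68) to Ifitm3 (1.73), Oasl1 (-1.12) is alone on the left, and replicate 1 lies right of replicate 2 for most genes.

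After 12 h of stimulation Zn4 cells held less of much of the family. Zn4 cells were lower than WT cells in 18 members and higher in 2, Ifih1 and Ifitm3, against 13.1% of all genes called, 8.28% lower and 4.85% higher, and the median member was at -0.51 against -0.01. By role, 8 of 9 GTPases, 3 of 6 sensors, 2 of 3 modifiers, 3 of 7 membrane proteins and others, 1 of 5 regulators (Irf1) and 1 of 9 RNA-directed effectors (Samhd1) were lower. The count of 18 became 16 when WT 12 h replicate 1 was left out and 11 when WT 12 h replicate 2 or Zn4 12 h replicate 1 was, and it was 11 with the Y-linked covariate, as the calls of Ddx58, Gbp3, Ifi47, Parp9, Parp14, Tap1 and Zbp1 were lost. CD8 T cell markers were lower in Zn4 cells too, 3 of 6 at 12 h (median -0.49) and 4 of 6 at 24 h (median -0.50); their part in the differences of the family was not tested. In Zn4 cells at 12 h, replicate 2 was above replicate 1 in 37 of 39 members (median difference of replicate 1 minus 2, -0.27). In WT cells at 12 h it was so in 31 of 39 (median -0.14). In each genotype the Y-linked sum of replicate 2 was the lower of the pair. Y-linked transcripts were high in both Zn4 libraries of 12 h but only in replicate 1 of WT, so they were also unequal between the genotypes.

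At 24 h, 10 members were lower in Zn4 cells and 4 higher, Ifih1, Ifitm3, Isg15 and Oas1a, against 19.4% of all genes called, 9.96% lower and 9.40% higher, with a median of -0.19. The 10 lower ones were Gbp2, Gbp3, Gbp4, Gbp7, Gbp9, Ifi27l2a, Ifi47, Irgm1, Samhd1 and Pyhin1, so 7 of 9 GTPases were among them. Without either WT library of 24 h, 6 were lower, and without replicate 1 of either genotype at 24 h, 2 were higher. Irf1 was at -0.44 ± 0.14 (adjusted p = 0.051 by limma).

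The difference between the genotypes' responses was tested with the genotype by time term. At 12 h, 15 members responded more negatively in Zn4 cells and 2 more positively (Ifih1 and Oasl1), against 5.12% of all genes called, 3.58% and 1.54%, and the median was -0.89. Among the 15 were 7 of 9 GTPases. At 24 h, 11 were more negative and 3 more positive (Ifih1, Oasl1 and Ifitm3), against 8.24% of all genes called, 4.35% and 3.88%, and the median was -0.51. These terms share the resting libraries with the resting comparison. The counts under alternative fits that follow come without the all-gene shares of those fits. With a pseudocount of 0.1 in place of 1, the calls of Oas1a, Oasl1 and Ifi35 at 12 h and of Oas2 and Ifitm3 at 24 h were lost. The call of Ifi35 (-0.64 ± 0.15, adjusted p = 0.0478 by limma) was lost under 16 alternatives. The count of 15 was 9 with the Y-linked covariate, and it was 7 or 8 when Zn4 12 h replicate 1 or WT 12 h replicate 2 was left out. The count of 11 was 5 when either WT library of 24 h or Zn4 24 h replicate 1 was left out and 6 when WT 0 h replicate 1 was.

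Upstream of the family, Ifng, which encodes interferon gamma, was the ligand of 20 listed that was analysed here. It stood at 0.0971 and 0.102 RPKM, then 13.4 and 9.70, then 18.7 and 18.5 in WT cells and at 0.443 and 0.399, then 375 and 570, then 224 and 278 in Zn4 cells. The stimulated Zn4 libraries were far above the WT ones (5.22 ± 0.20 at 12 h, adjusted p = 1.1e-06 by limma, and 3.67 ± 0.20 at 24 h, adjusted p = 1e-05). The receptor gene Ifngr1 fell from 261 and 220 to 10.3 and 8.91 and then 11 and 10.8 in WT and from 133 and 120 to 7.43 and 7.51 and then 13.5 and 11.1 in Zn4 cells, and was lower in resting Zn4 cells (-0.92 ± 0.12, adjusted p = 0.00175). Ifngr2 fell by 4.22 in WT and 4.92 in Zn4 cells. Of the type I receptor genes, Ifnar1 fell by 1.35 and 2.14, and Ifnar2 was at -0.06 ± 0.11 in WT (adjusted p = 0.678) and fell by 0.55 in Zn4 cells. In all, 3 of 5 receptor genes tested fell over 12 h in WT and 4 in Zn4 cells, against 27.0% and 29.6% of all genes.

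Of all genes, 43.1% rose and 27.0% fell over 12 h in WT cells, and 43.5% rose and 29.6% fell in Zn4 cells. Over the 5 kinase and STAT genes, 1 rose (Jak2, 0.96) and 2 fell (Jak1, -1.51, and Stat3, -0.45) over 12 h in WT cells. In Zn4 cells 2 rose (Jak2, 0.76, and Tyk2, 0.70) and 3 fell, Jak1 (-1.91) most. The inhibitor Socs1 was at 13.1 and 15.7, then 24.0 and 20.1, then 22.5 and 21.6 in WT and at 22.8 and 30.7, then 25.9 and 29.4, then 55.7 and 56.2 in Zn4 cells, higher at rest (0.84 ± 0.15, adjusted p = 0.00967) and at 24 h (1.31 ± 0.15, adjusted p = 0.000392). Socs3 (1.15 ± 0.25) and Cish (1.00 ± 0.17), inhibitors of the same family, were higher at rest too. Of 11 inhibitor genes, 4 rose and 4 fell over 12 h in WT cells, with the phosphatase gene Ptpn6 (2.25) and Cish (0.64) highest and Socs3 (-2.57) and Pias1 (-1.35) lowest. In Zn4 cells 3 rose and 3 fell, again with Cish (1.79), Ptpn6 (1.36), Pias1 (-1.40) and Socs3 (-3.32) at the ends.

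The list of other IRF genes also holds Irf2bp1, Irf2bp2 and Irf2bpl, which are not IRF genes themselves. Of these 9 genes, 5 rose and 2 fell over 12 h in WT cells (55.6% and 22.2%, against 43.1% and 27.0% of all genes). In Zn4 cells 4 rose and 2 fell (44.4% and 22.2%, near the 43.5% and 29.6% of all genes). The rises were led in WT by Irf8 (4.30 ± 0.22) and Irf4 (3.19 ± 0.37), factors of activated lymphocytes, and in Zn4 cells by the same genes (4.13 and 1.65). Irf2bp2 (-1.64 in WT and -1.24 in Zn4 cells) and Irf2bpl (-0.84 and -1.24), which encode cofactors of IRF2 or their relatives, fell. At rest Irf4 was higher in Zn4 cells (1.60 ± 0.37). In nucleic acid sensing, 2 of 13 genes rose and 5 fell in WT (15.4% and 38.5%) and 3 rose and 7 fell in Zn4 cells (23.1% and 53.8%). The adaptors Mavs (1.81 ± 0.10) and Ticam1 (1.32 ± 0.10) rose in WT cells and again in Zn4 cells (1.81 and 1.74). The kinase gene Ikbke fell in both (-1.17 in WT and -1.52 in Zn4 cells), with Azi2 (-0.99) next in WT and Tbk1 (-0.75) next in Zn4 cells. In antigen processing, 7 of 20 genes rose and 9 fell in WT (35% and 45%) and 4 rose and 13 fell in Zn4 cells (20% and 65%). The MHC class Ib genes H2-Q6 (-3.08) and H2-Q4 (-2.65) were lowest in WT and also in Zn4 cells (-2.55 and -2.47). The chaperone gene Pdia3 rose most in both (1.93 and 1.88), followed by Erap1, a peptide-trimming protease (1.22), in WT and the chaperone gene Calr (0.92) in Zn4 cells. H2-Q6 (0.69) and the immunoproteasome gene Psmb8 (0.58) were higher in resting Zn4 cells.

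A further list of 99 tested interferon-stimulated genes outside the family was mostly lowered as well. Over 12 h, 57 fell and 19 rose in WT cells (57.6% and 19.2%, against 27.0% and 43.1% of all genes). In Zn4 cells 68 fell and 13 rose (68.7% and 13.1%, against 29.6% and 43.5% of all genes). At 12 h, 36 were lower and 4 higher in Zn4 than in WT cells (36.4% and 4.04%, against 8.28% and 4.85% of all genes). Epsti1 (-3.19 ± 0.15 and -4.28 ± 0.15) and Rnf213 (-2.55 ± 0.17 and -3.45 ± 0.17) fell most in WT and Zn4 cells, while Lap3 (2.88 and 2.83) and Plscr1 (2.73 and 3.16) rose in both. Ly6a, a surface marker of activated T cells, rose in WT cells (2.87 ± 0.34) and was not called in Zn4 cells (0.42 ± 0.34), a difference in response of -2.45 ± 0.48 (adjusted p = 0.0219 by limma). At rest 7 were higher and 1 lower in Zn4 cells (7.07% and 1.01%, against 3.76% and 1.96% of all genes). Ube2l6, the enzyme that passes Isg15 to its targets, was at 0.235 and 0.307 RPKM in resting WT and 10 and 5.78 in resting Zn4 cells (2.77 ± 0.24, adjusted p = 0.000155 by limma). The GTPase Iigp1 was at 0.813 and 1.91 in resting WT and 14.3 and 19.7 in resting Zn4 cells (2.95 ± 0.30, adjusted p = 0.000405), and the 1 gene lower was Mitd1 (-0.53 ± 0.10).

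Across the 12 libraries the family's members did not share 1 pattern. By the order of group means, resting Zn4 cells were highest for 20 members and resting WT cells for 9, stimulated groups held the maximum for the other 10, and Zn4 cells at 12 h were lowest for 23. Bst2 (r = -0.54), Ifih1 (-0.41), Ifitm3 (-0.21) and Gbp2 (-0.08) were least like the mean of the members' standardised values, which includes each of them. The genes outside the family most like that mean were Ccdc92 (r = 0.983), Slc2a9 (0.979), Trim30a (0.979), Itgb7 (0.976) and Tmsb10 (0.976). These correlations describe 12 libraries that share 6 groups and carry no test.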

How the data were processed

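Poly(A) RNA of 12 libraries was sequenced single-end with a stranded kit, per the labels' protocols. The authors deposited 1 table of RPKM values; TopHat2 2.0.12, HTSeq 0.6.1 and the build mm10 are named in the submitters' processing notes, and how reads matching several copies were counted, or whether strand was used, is not given in the sources used here. From the deposited RPKM values, whole reads were recovered for 12884 of 12885 genes (within 0.02 of a whole number), which gave the depths in the text. For 7 symbols on 2 lines, the first line was kept.

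The main test was limma 3.58.1 (R 4.3.3) on log2(RPKM + 1) of the 12726 genes that reached 1 RPKM in 2 or more libraries, with 1 mean per group, 6 residual degrees of freedom shared by all groups, and Benjamini-Hochberg adjustment over all genes tested in each of 11 comparisons; a called gene has an adjusted p under 0.05. Fold changes on this scale understate those of low genes. Ratios of means use RPKM. Values per library are given for 26 members: those among the 4 with the largest called change in each direction of any comparison, those called against most others, and Irf1, Irf7, Irf9 and Stat2. Each pathway list is shown by its 2 most changed called genes per direction at 12 h and at rest, with Ifngr1, Ifnar1, Ifnar2, Ifng and Socs1 in any case; 2 genes that this rule names are not reported here. The members and all gene lists were chosen with earlier results of these data known. The fit was tested on simulated data.

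As alternatives, the pseudocount was set to 0.1, the filter was dropped or raised to 5 RPKM, and the fit was repeated with median-ratio scaling, quantile normalization, a replicate block, limma-voom on recovered reads and a covariate for the summed Y-linked transcripts, and without each library in turn. A replicate block at each time point was added after seeing the data. Counts under the alternatives are given without the all-gene shares of the same fits. Whether calls changed in the family or over all genes alike can thus not be read from them. Replicate numbers were not taken to pair the samples, since 3 of 15 correlations between groups' deviations were over 0.1, among them 0.61 between the resting genotypes.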

Additional observations from a re-analysis of the deposited data

Results flagged for a closer look

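For these results the response to stimulation differed between the genotypes by a test of the difference itself. Each value is the Zn4 response minus the WT response in log2(RPKM + 1), ± SE, with limma's adjusted p over all tested genes.

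At 12 h the difference was negative for Irf1 (-1.52 ± 0.19, 0.00323), Stat2 (-1.24 ± 0.28, 0.0353), Gbp2 (-3.04 ± 0.35, 0.00228), Gbp4 (-2.06 ± 0.32, 0.00774), Gbp7 (-1.32 ± 0.26, 0.0221), Gbp9 (-1.36 ± 0.27, 0.0221), Oas1a (-1.03 ± 0.23, 0.0377), Ifi35 (-0.64 ± 0.15, 0.0478), Ifi47 (-2.0 ± 0.37, 0.0163), Igtp (-1.88 ± 0.26, 0.00481), Irgm1 (-1.93 ± 0.30, 0.00734), Parp14 (-1.50 ± 0.25, 0.0106), Samhd1 (-1.77 ± 0.21, 0.00238), Pyhin1 (-1.66 ± 0.26, 0.00764) and Tap1 (-0.93 ± 0.17, 0.0159). It was positive for Ifih1 (2.98 ± 0.35, 0.00228) and Oasl1 (0.93 ± 0.19, 0.0246).

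At 24 h it was negative for Gbp2 (-2.65 ± 0.35, 0.00354), Gbp4 (-2.24 ± 0.32, 0.00465), Gbp7 (-1.20 ± 0.26, 0.0247), Gbp9 (-1.60 ± 0.27, 0.00882), Oas2 (-1.27 ± 0.28, 0.025), Ifi47 (-1.87 ± 0.37, 0.0167), Igtp (-1.15 ± 0.26, 0.029), Irgm1 (-1.28 ± 0.30, 0.0301), Parp14 (-1.10 ± 0.25, 0.0284), Samhd1 (-1.32 ± 0.21, 0.00748) and Pyhin1 (-2.51 ± 0.26, 0.00121). It was positive for Ifih1 (1.67 ± 0.35, 0.0213), Oasl1 (1.37 ± 0.19, 0.00417) and Ifitm3 (2.65 ± 0.29, 0.00144).

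Among these, Oas1a, Oas2 and Oasl1 were near or below 1 RPKM in stimulated cells of both genotypes, and Ifitm3 was low in WT cells. With a pseudocount of 0.1 the value of Oas1a at 12 h was -0.54 (adjusted p = 0.586 by limma), of Oas2 at 24 h -1.06 (adjusted p = 0.266), of Oasl1 at 12 h 0.73 (adjusted p = 0.45) and of Ifitm3 at 24 h 1.69 (adjusted p = 0.0967). With limma-voom on recovered reads the values were 0.42 (adjusted p = 0.83), -0.67 (adjusted p = 0.711), 0.29 (adjusted p = 0.854) and 1.36 (adjusted p = 0.302). The call of Ifi35 was lost under 16 alternatives, with values from -0.69 to -0.46.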

How the results depend on the processing

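Of 229 called results for single members, 151 were called under every one of the 21 alternatives in which they were fitted. Direction reversed for Tap1 over 24 h in WT cells (-0.00 with median-ratio scaling and -0.02 with quantile normalization) and for Oas1a in the difference of responses at 12 h (0.42 with limma-voom on recovered reads). Those scalings moved the all-gene medians of 12 h and 24 h against 0 h by -0.14 to -0.32 and the member medians to -1.19 and -1.11 (WT 12 h), -0.98 and -0.99 (WT 24 h), -2.10 and -2.01 (Zn4 12 h) and -1.37 and -1.36 (Zn4 24 h), and left 5 members higher in WT cells at 24 h and 1 higher in Zn4 cells at 12 h. From 12 h to 24 h in WT cells, 1 member was lower with quantile normalization, with a pseudocount of 0.1 and with limma-voom. The difference of responses at 12 h was positive for 1 member with a pseudocount of 0.1, the 5 RPKM filter, the Y-linked covariate and limma-voom. The 5 RPKM filter tested 30 members and left 0 lower at rest. With the Y-linked covariate, the counts were 3 higher from 12 h to 24 h in WT cells, 6 higher and 0 lower in Zn4 cells, 1 higher over 12 h in Zn4 cells, 11 lower in Zn4 than in WT cells at 12 h and 9 more negative responses at 12 h. A replicate block, with numbers not shown to pair the samples, kept 226 of the 229 calls. The block at each time point, chosen after seeing the data, gave 14 higher from 12 h to 24 h in WT cells, 11 higher at rest and 1 higher over 12 h in Zn4 cells. Leaving out 1 library at a time gave ranges of 2 to 12 higher and 0 to 1 lower from 12 h to 24 h in WT cells, 1 to 2 higher over 12 h in Zn4 cells and 0 to 2 lower from 12 h to 24 h in Zn4 cells. At rest it gave 1 to 3 members lower in Zn4 cells. Between genotypes it gave 11 to 19 lower at 12 h and 2 to 6 higher and 6 to 12 lower at 24 h, and for the difference of responses 1 to 2 positive and 7 to 19 negative at 12 h and 5 to 12 negative at 24 h. Members near or below 1 RPKM after stimulation rest on few reads there, as Ifitm3 does in WT cells at rest too.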
